A study of Mus musculus with 10 samples.

Results

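Nox4 and the enzymes that handle the superoxide and peroxide of the mouse kidney were followed across 6 groups of kidney arrays. The set held 10 genes, of 12393 genes with a probe set of their own in the platform annotation: Nox4 and its partner Cyba, the superoxide dismutases Sod1, Sod2 and Sod3, catalase (Cat), the glutathione peroxidases Gpx1, Gpx3 and Gpx4, and the peroxiredoxin Prdx6. Every probe set annotated to one of these symbols was taken, which gave 16 probe sets for 9 genes, and all 16 lay above the filter on dim signal. Prdx6 is named only. The list was drawn up with results of these arrays known. Nox4 was chosen by its difference between the newly transcribed arrays, so that difference is described here without a test.

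Kidneys came from C57/BLACK6 males aged 7 weeks, with a body weight near 20 g. In the contralateral group the vessels of the left kidney were clamped for 45 min under diethylether, and the unclamped kidney of the other side was taken 3 h after the clamp was removed. The normal group had no surgery. All mice were given 4-thiouridine (s4U, a nucleoside that marks new RNA, 200 µM) with tritiated cytidine by intraperitoneal injection, with water named as the control for s4U. In contralateral mice this was at 1 h and 2 h. In normal mice it was at 0 h and 1 h, with kidney removal at 2 h. For each kidney group, total RNA and amplified total RNA were hybridised to 2 arrays each, and newly transcribed RNA to 1 array. The labels mention no sham operation, so surgery, anaesthesia and clock time cannot be told apart from the kidney group. Whole kidneys were measured, so fewer cells of a type and less RNA per cell cannot be told apart either. Arrays of a group are labelled as biological replicates, without saying which of them share a mouse.

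NOX4 is a membrane oxidase abundant in kidney tubules that, bound to the CYBA protein, passes electrons from NADPH to oxygen and releases mainly hydrogen peroxide. Superoxide dismutases turn superoxide into peroxide in the cytosol (SOD1), the mitochondria (SOD2) and outside the cell (SOD3). Catalase removes peroxide in peroxisomes, while glutathione peroxidases and PRDX6 reduce peroxides with glutathione as the electron donor.

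Promoter sequences are shown for Nox4, the member furthest apart between the newly transcribed arrays, and for Cat and Sod1, the genes with a call between the kidneys. Each runs from 250 bases before to 50 after the gene's start, 5′ to 3′ on the gene's strand, from RefSeq with build GRCm38.p6. Capitals mark 3 short motifs of core promoters, searched on both strands, so that their complements also stand in capitals. The GC box, which binds SP1, was searched as GGGCGG. For the CCAAT box, which binds NF-Y, the letters of its name were searched. The TATA box was searched as TATAAA. Of the 10 genes, 8 matched the promoter table.
Nox4 at chr7:87246399-87246698, + strand: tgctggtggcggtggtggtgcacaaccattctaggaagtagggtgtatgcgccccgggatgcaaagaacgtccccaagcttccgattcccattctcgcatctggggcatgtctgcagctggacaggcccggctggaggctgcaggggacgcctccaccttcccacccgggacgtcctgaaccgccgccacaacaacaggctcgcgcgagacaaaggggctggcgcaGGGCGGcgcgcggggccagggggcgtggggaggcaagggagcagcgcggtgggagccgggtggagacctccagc
Cat at chr2:103485104-103485403, - strand: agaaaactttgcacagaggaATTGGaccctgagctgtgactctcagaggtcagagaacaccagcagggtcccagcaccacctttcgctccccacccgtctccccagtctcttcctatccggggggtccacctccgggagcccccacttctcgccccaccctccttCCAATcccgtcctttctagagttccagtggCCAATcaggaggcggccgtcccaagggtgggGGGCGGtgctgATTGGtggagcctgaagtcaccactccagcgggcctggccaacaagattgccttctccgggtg
Sod1 at chr16:90220512-90220811, + strand: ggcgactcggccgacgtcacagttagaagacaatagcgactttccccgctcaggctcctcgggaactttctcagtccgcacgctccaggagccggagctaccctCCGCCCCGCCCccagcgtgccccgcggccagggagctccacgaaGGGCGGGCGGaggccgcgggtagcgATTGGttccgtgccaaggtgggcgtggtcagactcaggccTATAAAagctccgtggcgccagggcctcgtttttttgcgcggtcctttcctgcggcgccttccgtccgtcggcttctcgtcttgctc
The Nox4 window held 1 GC box, no CCAAT box and no TATA box, with 68.3% G or C. The Cat window held 4 CCAAT boxes and 1 GC box, with 62.0% G or C. In the Sod1 window 4 GC boxes, some overlapping, 1 CCAAT box and 1 TATA box were found, with 66.7% G or C. Among all 32851 promoters of the table, 35.7% held the GC box, 37.4% the CCAAT box and 13.6% the TATA box, on either strand. A match describes letters and not a bound site.

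Arrays differed in brightness and in 3′ bias. Median deposited intensity was 18.6 on the contralateral and 70.3 on the normal newly transcribed array, against 26.6 to 59.7 on the 8 others. In total RNA it was 40.4 and 41.6 on contralateral arrays and 55.9 and 59.7 on normal arrays. The 3′/5′ ratio of the Gapdh control probe sets was 0.938 to 1.12 in total RNA, 4.21 to 6.23 in amplified RNA, and on newly transcribed arrays 68.9 (contralateral) and 12.7 (normal). Markers of the proximal tubule made up 0.406 to 0.505% of the summed signal on the 4 contralateral total and amplified arrays and 0.445 to 0.507% on the 4 normal ones, and all 10 of these markers were measured, with none at 0. Unless called deposited, levels below are log2(intensity + 11.8) after quantile normalization, group values are mean ± SD with n = 2, and a ± after a difference is limma's standard error. Adjusted p-values are limma's, adjusted by Benjamini-Hochberg over all 13575 tested probe sets.

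**Figure D1:**
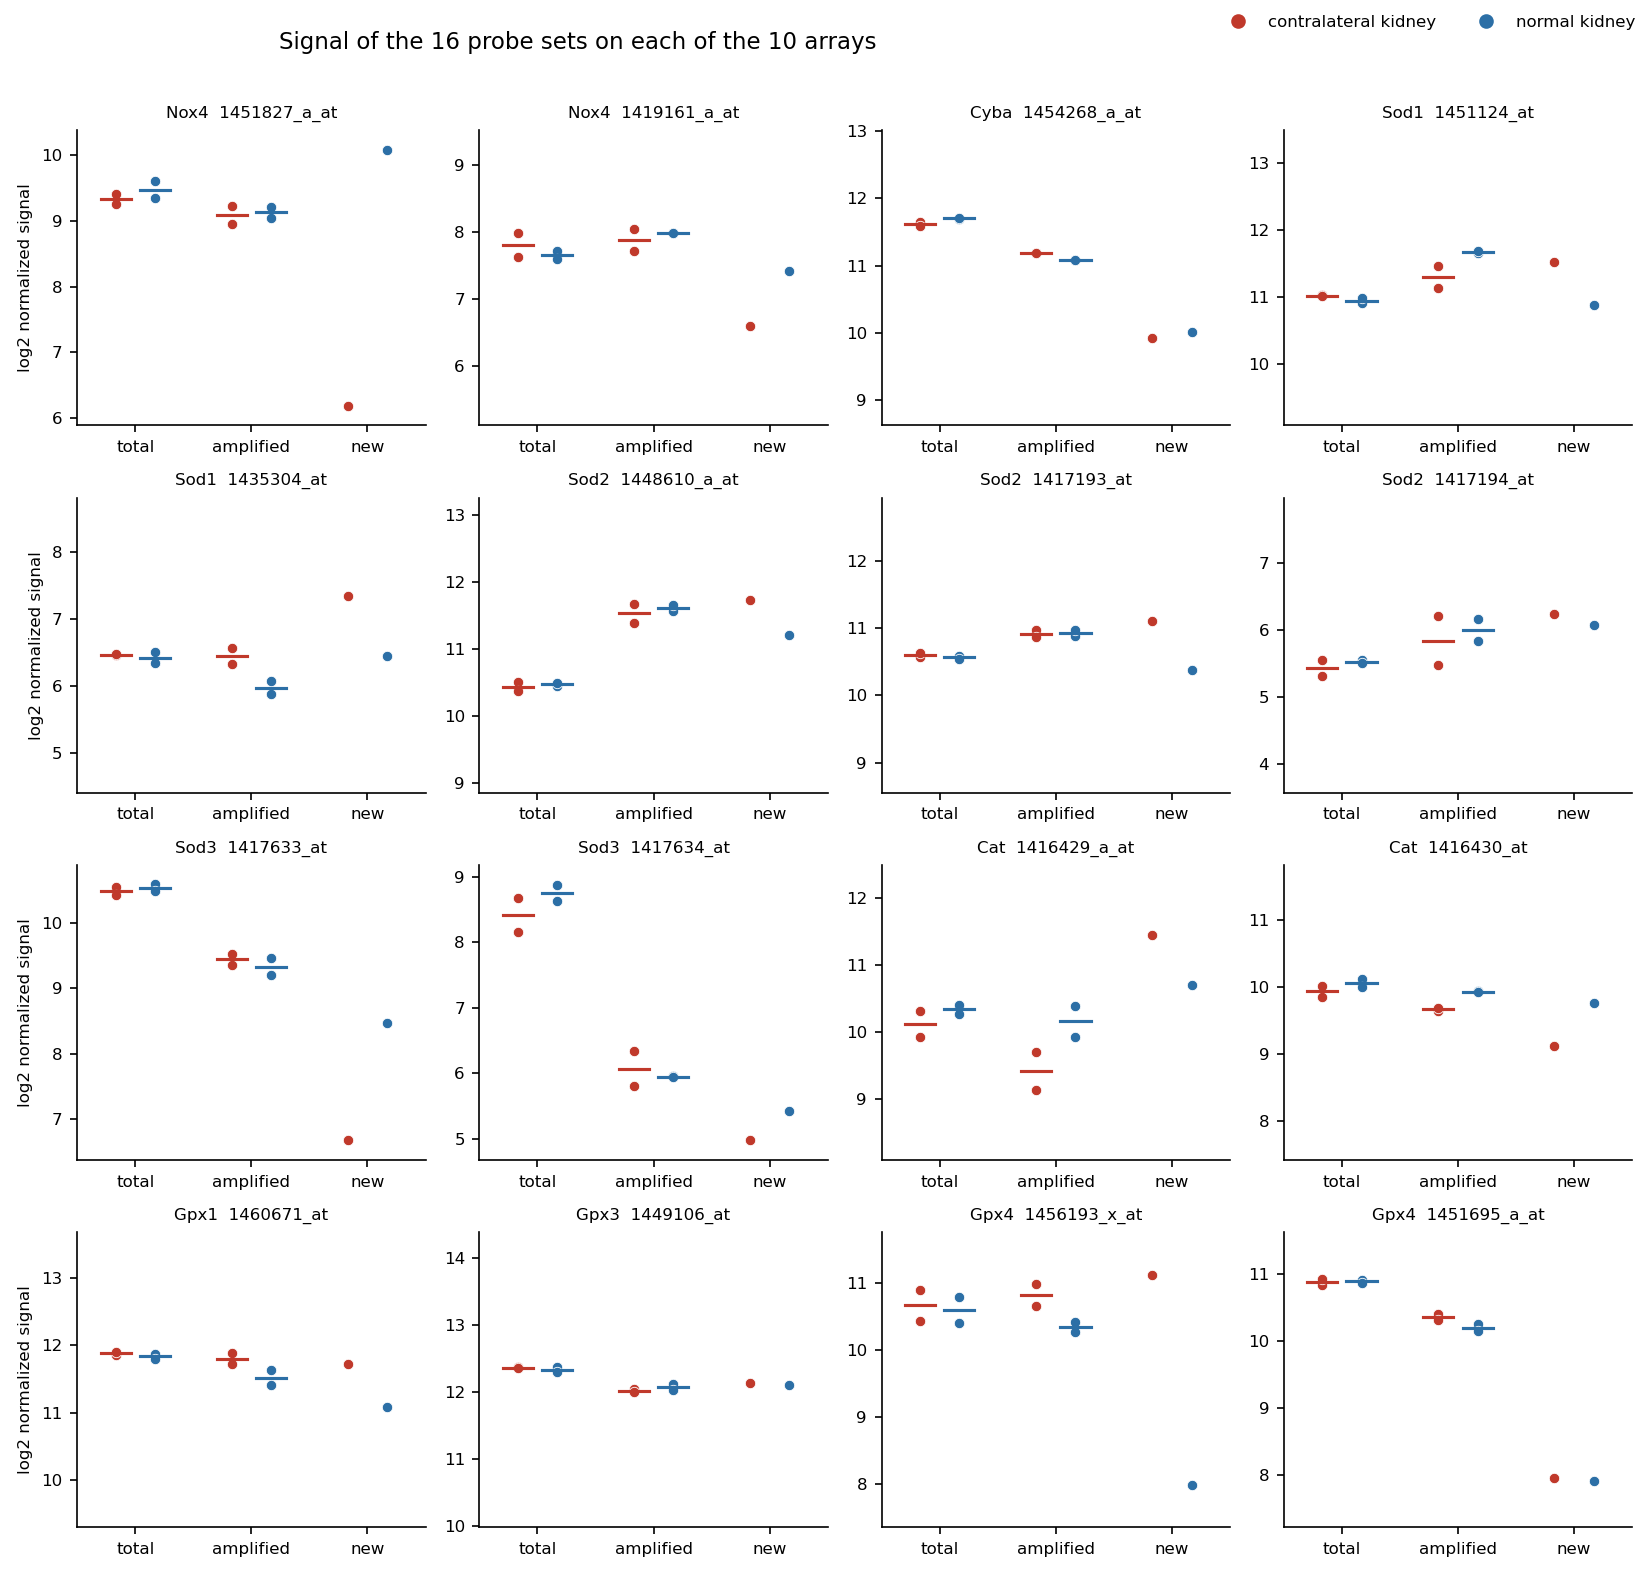
Normalized log2 signal (vertical axis) of each of the 16 probe sets on each of the 10 arrays, in total, amplified total and newly transcribed (new) RNA. Points are arrays, bars are means of 2 arrays, red is contralateral and blue is normal. The kidney groups lie close together in total RNA, and Nox4 1451827_a_at parts them in newly transcribed RNA, at 6.19 in the contralateral and 10.08 in the normal kidney.

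Between contralateral and normal kidneys no member passed in total RNA, and 2 of the 16 probe sets did in amplified RNA. In total RNA none of the 16 probe sets passed (limma), none reached an unadjusted p under 0.05, and the differences ran from -0.33 to 0.15 with a median of -0.022. Of all 13575 tested probe sets 1.91% passed, and the median over all tested was -0.015. In amplified RNA the brighter Cat and Sod1 probe sets were lower in contralateral kidneys and passed. Differences there ran from -0.73 to 0.47, and 6 of 16 had an unadjusted p under 0.05. Shares of all tested probe sets under an unadjusted p of 0.05 were not counted, so such counts of members have no background here. By adjusted p, 10.3% of all tested probe sets passed in amplified RNA in either direction and 6.22% were lower. The members' median was -0.025, against 0.021 for all tested.

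**Figure D2:**
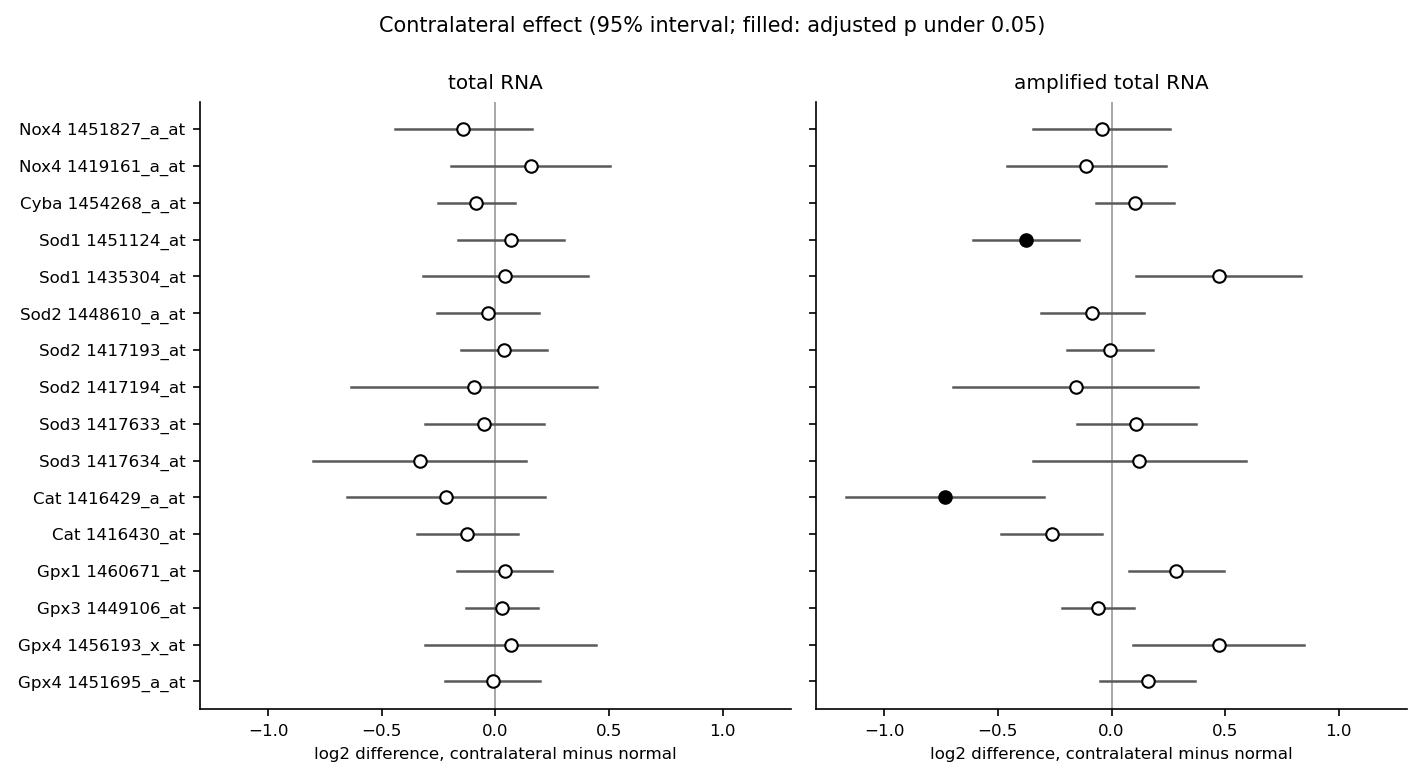
Difference contralateral minus normal (log2, horizontal axis) of the 16 probe sets in total RNA (left) and amplified total RNA (right), with limma's 95% interval from 2 arrays per group. Filled points have an adjusted p under 0.05: Cat 1416429_a_at at -0.73 and Sod1 1451124_at at -0.38, both in amplified RNA.

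Nox4 has 2 probe sets. The brighter, 1451827_a_at, had deposited intensities of 548 and 544 in contralateral total RNA, against 906 and 764 in normal total RNA. After normalization these were 9.41 and 9.26 in contralateral and 9.61 and 9.34 in normal kidneys, and the groups overlapped. The difference was -0.14 ± 0.14 (95% interval -0.44 to 0.16, adjusted p = 0.695). In amplified RNA Nox4 1451827_a_at read 9.23 and 8.96 in contralateral kidneys and 9.05 and 9.22 in normal kidneys. Here too the groups overlapped, with a difference of -0.04 ± 0.14 (95% interval -0.34 to 0.26, adjusted p = 0.884). The dimmer Nox4 probe set, 1419161_a_at, differed by 0.15 ± 0.16 in total RNA (adjusted p = 0.716) and by -0.11 ± 0.16 in amplified RNA (adjusted p = 0.722). The intervals of both probe sets leave room for differences of up to about -0.46 and 0.51 on the log2 scale, and no shift in the Nox4 level was detectable with 2 arrays per group.

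Lower deposited signal in contralateral total RNA was not particular to Nox4. Of the 16 probe sets, 15 had lower deposited intensities on both contralateral total RNA arrays than on both normal ones, and so did 79.2% of all tested probe sets. After normalization 1 was lower without overlap (Cyba), 1 was higher (Sod1 1451124_at) and 14 overlapped, where 46.6% of all tested probe sets did not overlap. Cyba, which encodes the subunit that stabilises NOX4, read 11.65 and 11.59 in contralateral and 11.70 and 11.71 in normal total RNA. In amplified RNA it stood the other way, at 11.18 and 11.19 in contralateral and 11.09 and 11.08 in normal kidneys. Neither Cyba difference passed (-0.08 ± 0.08 with adjusted p = 0.681, and 0.10 ± 0.08 with adjusted p = 0.462).

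Sod1, the copper and zinc enzyme of the cytosol, has a bright probe set, 1451124_at, and a dim one, 1435304_at. In amplified RNA 1451124_at had deposited intensities of 2238 and 2611 in contralateral kidneys, against 3606 and 3279 in normal kidneys. Normalized, these were 11.46 and 11.13 in contralateral and 11.66 and 11.69 in normal kidneys, without overlap. It was lower by limma's test, with a difference of -0.38 ± 0.11 (95% interval -0.61 to -0.15, adjusted p = 0.0448). The dim Sod1 probe set pointed the other way, at 6.32 and 6.57 in contralateral and 5.88 and 6.08 in normal amplified RNA (0.47 ± 0.16, adjusted p = 0.0993). In total RNA Sod1 1451124_at read 11.03 and 11.01 in contralateral kidneys and 10.91 and 10.98 in normal kidneys, a difference of 0.07 ± 0.11 (adjusted p = 0.82).

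The Sod1 call rested on individual arrays. It held in 7 of 17 alternatives, with the same sign in all 17. Median scaling, no filter or no trend ended it (adjusted p = 0.113 to 0.186). Leaving out contralateral amplified replicate 2 gave -0.22 (adjusted p = 0.142), normal amplified replicate 1 gave -0.39 (adjusted p = 0.17) and normal amplified replicate 2 gave -0.37 (adjusted p = 0.216). Without any of the 4 total RNA arrays, in turn, the adjusted p was 0.0657 to 0.0681. The change of the Sod1 effect between preparations was -0.45 ± 0.15 (adjusted p = 0.136), and became -0.61 (adjusted p = 0.0113) without contralateral amplified replicate 1.

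Sod2, the manganese enzyme of mitochondria, and Sod3, the secreted one, gave no call between kidneys in either preparation. Over the 3 Sod2 probe sets the differences ran from -0.09 to 0.04 in total and from -0.16 to -0.01 in amplified RNA. Probe set 1448610_a_at averaged 10.44 ± 0.09 in contralateral and 10.47 ± 0.03 in normal total RNA (adjusted p = 0.923). Sod3 1417633_at averaged 10.49 ± 0.08 in contralateral and 10.54 ± 0.07 in normal total RNA (adjusted p = 0.902). The other Sod3 probe set, 1417634_at, had the lowest total RNA difference of the 16, -0.33 ± 0.21 (95% interval -0.80 to 0.13, adjusted p = 0.508). Its arrays overlapped, at 8.68 and 8.16 in contralateral and 8.62 and 8.88 in normal kidneys.

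Cat, which encodes catalase, had the lowest difference of the set in amplified RNA. Probe set 1416429_a_at had deposited intensities of 643 and 757 in contralateral kidneys, against 1476 and 1111 in normal kidneys. Both contralateral arrays lay below both normal ones, also after normalization, at 9.71 and 9.14 in contralateral and 10.38 and 9.93 in normal kidneys. The difference was -0.73 ± 0.20 (95% interval -1.17 to -0.30, limma adjusted p = 0.039). Cat 1416430_at pointed the same way without passing, at 9.64 and 9.69 in contralateral and 9.93 and 9.92 in normal amplified RNA (-0.26 ± 0.10, adjusted p = 0.131). In total RNA the Cat differences were -0.22 ± 0.20 (adjusted p = 0.67) and -0.12 ± 0.10 (adjusted p = 0.629), with overlapping arrays.

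The call on Cat 1416429_a_at held in 10 of 17 alternatives, with the same sign in all 17. It was lost with median scaling, no filter or no trend (adjusted p = 0.0559 to 0.1). It was also lost without normal amplified replicate 1 (-0.50, adjusted p = 0.282), without contralateral amplified replicate 2 (-0.46, adjusted p = 0.186) and without normal total replicate 1 or 2 (adjusted p = 0.0622 and 0.0611). Values that moved alongside in amplified RNA were those of leukocyte markers, of which 16 of 16 were measured and none was at 0. Their summed share of signal was 0.0474 to 0.0565% on contralateral and 0.0399 to 0.0417% on normal amplified arrays, and 1 of 11 tested, Cd74, was higher (0.47). Csf1r was the brightest leukocyte marker, with deposited intensities of 628.9 to 1495.6 over all arrays, followed by Cd74 at 107.2 to 650.4. The summed share thus rests largely on these markers. For adipose, muscle and adrenal markers, 13 of 16 measured and none at 0, the shares were 0.0222 to 0.0252% on contralateral and 0.0183 to 0.0198% on normal arrays. Of these 13, only 5 lay above the filter on dim signal, none of them a muscle marker. The adipose marker Fabp4 was the brightest, with deposited intensities of 458.7 to 1011.5 over all arrays. Of 10 proximal tubule markers 2 were lower in contralateral amplified RNA, Slc13a3 (-0.82, adjusted p = 0.00221) and Lrp2 (-0.59, adjusted p = 0.0148), each with a second probe set that did not pass (-0.001 and -0.161). Among 5 tested collecting duct markers 1, Scnn1g, was higher in contralateral amplified RNA (0.47, adjusted p = 0.0456), a call held in 7 of 17 alternatives. The part of these markers in the Cat and Sod1 calls was not tested.

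The glutathione peroxidases gave no call between kidneys. Gpx1, the cytosolic form, read 11.89 and 11.72 in contralateral and 11.63 and 11.40 in normal amplified RNA, without overlap (0.28 ± 0.10, adjusted p = 0.0875). In total RNA its difference was 0.04 ± 0.10 (adjusted p = 0.895). Gpx3, the plasma form made mainly in kidney tubules, averaged 12.36 ± 0.01 in contralateral and 12.33 ± 0.05 in normal total RNA, a difference of 0.03 ± 0.07 (95% interval -0.13 to 0.19, adjusted p = 0.903). In amplified RNA Gpx3 differed by -0.06 ± 0.07 (adjusted p = 0.661). Its intervals were the narrowest of the 16.

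Gpx4, which reduces lipid peroxides in membranes, has 2 probe sets that differ in behaviour. The suffix of 1456193_x_at marks probes that may also match other transcripts. It read 10.66 and 10.98 in contralateral and 10.42 and 10.27 in normal amplified RNA (0.47 ± 0.17, adjusted p = 0.111). For 1451695_a_at the values were 10.40 and 10.31 in contralateral and 10.25 and 10.15 in normal amplified RNA (0.16 ± 0.09, adjusted p = 0.335). Both were higher without overlap, and neither passed. Over the 16 probe sets 3 were lower and 5 higher without overlap in amplified RNA, which is 8 of 16, where 54.9% of all tested probe sets did not overlap.

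Joining total and amplified RNA in an additive fit gave no call among the 16 (limma), where 2.36% of all tested probe sets passed. Both Cat probe sets had an unadjusted p under 0.05 and did not pass (-0.48 ± 0.16 with adjusted p = 0.177, and -0.19 ± 0.08 with adjusted p = 0.233). For Nox4 the joint differences were -0.09 ± 0.10 (95% interval -0.31 to 0.13) and 0.02 ± 0.12 (95% interval -0.25 to 0.29). Whether the kidney effect differed between preparations was tested directly, and none of the 16 passed (limma), with 1, Sod1 1451124_at, at an unadjusted p under 0.05. Of all tested probe sets 4.46% passed that test.

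Newly transcribed RNA is the fraction enriched for s4U, and had 1 array per kidney, so its values have no replicate check. Nox4 1451827_a_at had a deposited intensity of 25.9 on the contralateral array and 1578 on the normal array. Normalized these were 6.19 in the contralateral and 10.08 in the normal kidney, a difference of -3.90, which was rank 7 from the lowest of 13575. This is the value that chose Nox4. The other Nox4 probe set went the same way with a smaller size, 36.0 deposited on the contralateral and 289.7 on the normal array (-0.82, rank 3108 from the lowest). For all tested probe sets the median was 0.00 and the central 90% ran from -1.86 to 1.61.

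**Figure D3:**
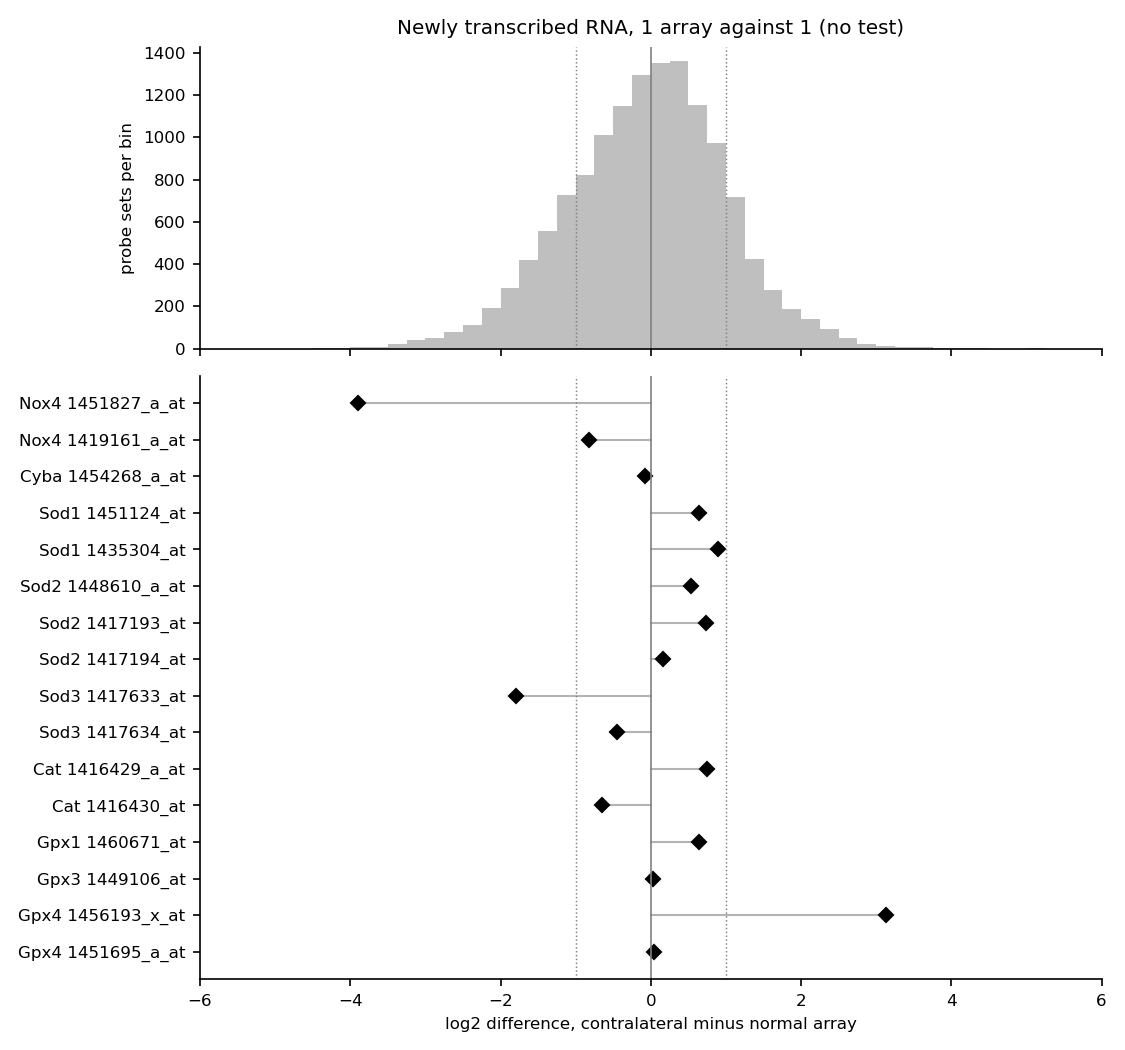
Difference contralateral minus normal (log2, horizontal axis) between the 2 newly transcribed arrays. Above are the 13575 tested probe sets in bins of width 0.25, below are the 16 member probe sets, and dotted lines mark 2-fold. Nox4 1451827_a_at lies at -3.90, Sod3 1417633_at at -1.79 and Gpx4 1456193_x_at at 3.13, and the other 13 lie within 2-fold.

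Past 2-fold, 2 of the 16 were lower and 1 was higher between the newly transcribed arrays, where 18.5% of all tested probe sets were lower and 14.4% higher. Beside Nox4 the lower one was Sod3 1417633_at, with deposited intensities of 38.4 on the contralateral and 601.8 on the normal array (-1.79). The other Sod3 probe set, 1417634_at, stood at -0.45. Gpx4 1456193_x_at was the higher one, with 1253 on the contralateral and 437 on the normal array (3.13). The second Gpx4 probe set, 1451695_a_at, did not share that, with 99.5 on the contralateral and 415 on the normal array (0.04). The 2 Cat probe sets stood on opposite sides, 1416429_a_at at 0.74 and 1416430_at at -0.65. Sod1 stood at 0.65 and 0.89, Sod2 at 0.53, 0.73 and 0.16, and Gpx1 at 0.65. Gpx3 at 0.03 and Cyba at -0.08 were near 0.

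Probe sets of one gene thus disagreed between these arrays, in size for Nox4, Sod3 and Gpx4 and in sign for Cat. The contralateral newly transcribed array was also the dimmest, with a Gapdh 3′/5′ ratio of 68.9 against 12.7 on the normal one and an Actb ratio of 24.8 against 12.7. Leukocyte markers made up 0.0703% of its signal, against 0.0337% on the normal array, and adipose, muscle and adrenal markers 0.0430% against 0.0127%. Fibroblast and smooth muscle markers, 8 of 8 measured and none at 0, made up 0.0969% against 0.0425%, and proximal tubule markers 0.44% against 0.319%. After normalization the 10 proximal tubule markers had a median difference of -0.19, with 2 lower and 1 higher past 2-fold. Shares of thick limb and distal tubule (0.26% against 0.195%) and collecting duct markers (0.0338% against 0.0316%) were higher. Those of podocyte (0.0171% against 0.0257%), red blood cell (0.00481% against 0.0107%) and endothelium markers (0.0261% against 0.0276%) were lower. The part of brightness, 3′ bias and these markers in the Nox4, Sod3 and Gpx4 differences was not tested. With arrays set to a common median in place of quantile normalization, the median of all tested probe sets moved to -0.20. Nox4 then stood at -3.97 and -1.22, Sod3 1417633_at at -2.18 and Gpx4 1456193_x_at at 2.93. Gpx1 (1.13), Cat 1416429_a_at (1.08), Sod1 1451124_at (1.02) and Sod2 1448610_a_at (1.02) passed 2-fold there, and Gpx3 moved to 0.93. The signs of Sod2 1417194_at (-0.02) and Gpx4 1451695_a_at (-0.50) turned.

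Set against amplified RNA of the same kidney group, newly transcribed Nox4 1451827_a_at was lower by 2.91 on the log2 scale in contralateral and higher by 0.95 in normal kidneys, also without a test. The other Nox4 probe set, 1419161_a_at, was lower in both, at -1.28 in contralateral and -0.57 in normal kidneys. Gpx4 1451695_a_at was at -2.40 in contralateral and -2.28 in normal kidneys, and Cyba at -1.26 and -1.07, so both probe sets were low in newly transcribed RNA of either kidney. The other Gpx4 probe set, 1456193_x_at, was at 0.30 in contralateral and -2.35 in normal kidneys. Sod3 1417633_at was at -2.77 in contralateral and -0.87 in normal kidneys. Cat 1416429_a_at was at 2.02 in contralateral and 0.54 in normal kidneys, while Cat 1416430_at was at -0.55 and -0.16. Over all tested probe sets the medians were -0.02 in contralateral and -0.03 in normal kidneys.

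On the same 8 arrays, 13 of the 16 probe sets differed between amplified and total RNA, where none had passed between kidneys (limma, with 2 at an unadjusted p under 0.05). Over both kidney groups 4 probe sets were higher and 9 lower in amplified than in total RNA, where 31.9% of all tested probe sets were higher and 26.3% lower. The 3 Sod2 probe sets were higher, 1448610_a_at by 1.12 ± 0.07 (adjusted p = 1.12e-06), 1417193_at by 0.34 ± 0.06 and 1417194_at by 0.44 ± 0.17 (adjusted p = 0.0497). Sod1 1451124_at was higher by 0.50 ± 0.10. Sod3 was the lowest, 1417634_at at -2.57 ± 0.17 (adjusted p = 8.87e-07) and 1417633_at at -1.13 ± 0.09. Its probe set 1417634_at had deposited intensities of 27.5, 83.7, 49.5 and 51.2 on the 4 amplified arrays, against 331, 250.2, 451 and 549 on the 4 total RNA arrays, without overlap.

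**Figure D4:**
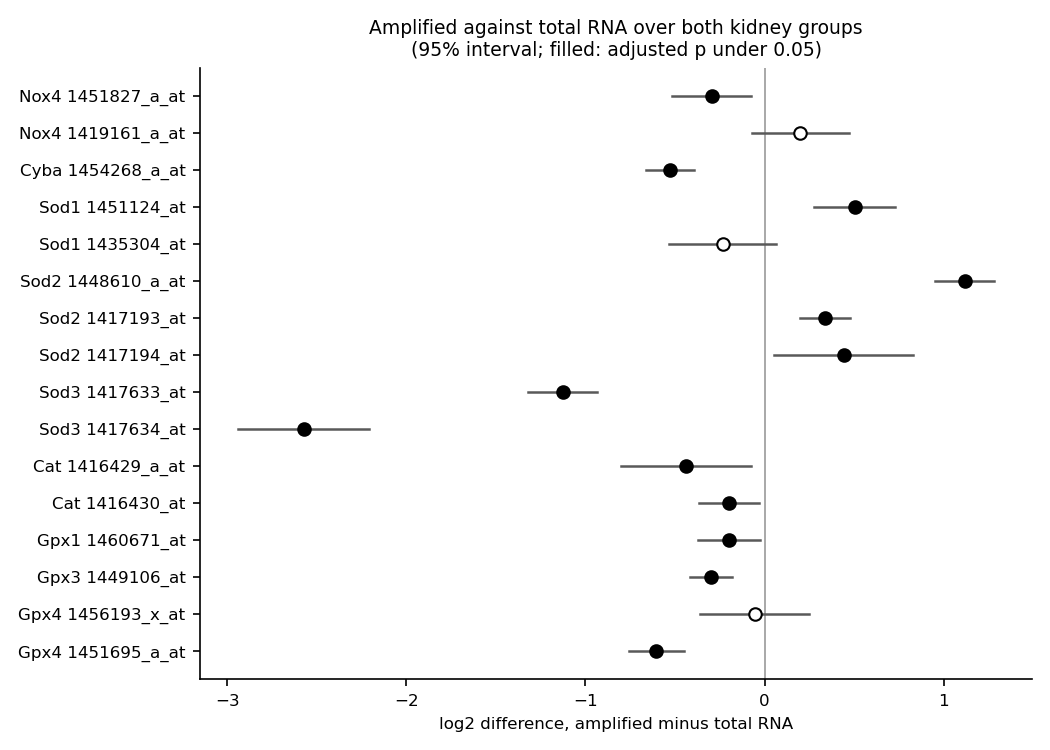
Difference amplified minus total RNA (log2, horizontal axis) over both kidney groups for the 16 probe sets, with limma's 95% interval from 8 arrays. Filled points have an adjusted p under 0.05. Sod2 1448610_a_at lies highest at 1.12 and Sod3 1417634_at lowest at -2.57.

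The other lower probe sets were Gpx4 1451695_a_at (-0.60 ± 0.07), Cyba (-0.53 ± 0.06), Cat 1416429_a_at (-0.44 ± 0.16), Gpx3 (-0.30 ± 0.05), Nox4 1451827_a_at (-0.29 ± 0.10), Cat 1416430_at (-0.20 ± 0.08) and Gpx1 (-0.20 ± 0.08). Gapdh 3′/5′ ratios of 4.21 to 6.23 in amplified and 0.938 to 1.12 in total RNA moved alongside, and their part was not tested. Setting arrays to a common median moved the median of all tested probe sets to 0.17, against 0.04 with quantile normalization. Nox4 1451827_a_at then stood at 0.02 and Cat 1416430_at at 0.13, both with the other sign, and Cat 1416429_a_at, Gpx1 and Gpx3 lost their calls. The second Nox4 probe set, 1419161_a_at, went the other way, at 0.20 ± 0.12 (adjusted p = 0.183), and was called higher with median scaling (0.45, adjusted p = 0.00518). The calls on Cyba, Sod1 1451124_at, Sod2 1448610_a_at and 1417193_at, both Sod3 probe sets and Gpx4 1451695_a_at held in 17 of 17 alternatives. Gpx3 held in 16, Nox4 1451827_a_at in 12, Cat 1416429_a_at in 9, Sod2 1417194_at and Gpx1 in 7 each, and Cat 1416430_at in 6.

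The wider pathway was read from 9 lists of 97 genes, of which 76 had a probe set and 62 were tested, 1 probe set per gene. The lists hold every member except Cat, which is not among the 62. In total RNA 1 of the 62 was higher and none lower in contralateral kidneys, beside the 1.91% of all tested probe sets, with a median of -0.01. That gene was Txnip, which encodes an inhibitor of thioredoxin, at 10.64 and 10.53 in contralateral and 10.03 and 9.79 in normal total RNA. The difference of Txnip 1415996_at was 0.68 ± 0.14 (adjusted p = 0.0337), and its second probe set differed by 0.87 (adjusted p = 0.0292). Without any 1 of the 4 total RNA or the 2 normal amplified arrays its adjusted p was 0.0578 to 0.275, and with median scaling, no filter or no trend it was 0.0534 to 0.113. The total RNA call on Txnip 1415996_at held in 8 of 17 alternatives. In the joint fit over total and amplified RNA it was higher by 0.57 (limma adjusted p = 0.0221), held in 9 of 17. The second probe set was higher there by 0.98 (limma adjusted p = 0.00348). Between the newly transcribed arrays both went the other way, at -1.11 and -1.19, without a test.

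In amplified RNA 2 of the 62 were higher and 6 lower, 8 in all beside the 10.3% of all tested probe sets, with a median of 0.01. The 5 tested NADPH oxidase genes gave no call by their brightest probe set, though Rac1 1423734_at, a second one, was higher (0.43, adjusted p = 0.0452), against -0.20 for the brightest. That Rac1 probe set was named after its values were seen, and its call held in 8 of 17 alternatives, and in none that left out an amplified array. The genes Cybb, Ncf1 and Ncf4 of the phagocyte oxidase lay below the filter. Apart from Sod1 the lower ones were Dao, a peroxisomal oxidase of D-amino acids that yields peroxide (-0.61 ± 0.09, adjusted p = 0.00138), Prdx3, the mitochondrial peroxiredoxin (-0.38 ± 0.09, adjusted p = 0.0267), Pex5, the import receptor of peroxisomes (-0.64 ± 0.14, adjusted p = 0.0144), the peroxidase Gpx8 (-0.67 ± 0.19, adjusted p = 0.0465) and Lrp2, an endocytic receptor and one of the proximal tubule markers above (-0.59 ± 0.13, adjusted p = 0.0148). Me1, a source of NADPH (0.58 ± 0.11, adjusted p = 0.00783), and the copper transporter Atp7a (0.63 ± 0.18, adjusted p = 0.0485) were higher. A second probe set stood at -0.62 for Atp7a, -0.01 for Pex5, 0.12 for Me1 and -0.16 for Lrp2, and none of these passed. Second probe sets that passed were lower for Gsr (-0.99, limma adjusted p = 0.00219) and Txnrd1 (-0.90, limma adjusted p = 0.0452). The second probe set of Txnip was higher (1.09, limma adjusted p = 0.0022). The brightest probe sets of these genes stood at -0.46 for Gsr, 0.04 for Txnrd1 and 0.45 for Txnip, and did not pass in amplified RNA. Of 17 alternatives the call held in 17 for Dao, 16 for Me1, 14 for Pex5 and Lrp2, 12 for Prdx3, 9 for Gpx8 and 3 for Atp7a.

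By Pearson correlation with Nox4 1451827_a_at over the 10 arrays, the nearest of 8299 other genes were Rac1 (0.98), Spg21 (0.98), Cetn3 (0.977), Ugt2b38 (0.977) and Pip4p2 (0.975). The arrays share preparation and kidney group, and the 2 newly transcribed arrays weigh most. Over the 8 others the values were 0.70 for Rac1, 0.698 for Spg21, 0.387 for Cetn3, 0.014 for Ugt2b38 and 0.876 for Pip4p2. Rac1, a small GTPase, differed by -2.32 between the contralateral and the normal newly transcribed array with this probe set and by 0.61 with another.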

How the data were processed

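The submitters' table holds 1 signal intensity per probe set and array, as deposited by the authors on a linear scale, for 10 one-colour Affymetrix arrays. Per the labels' protocols, RNA was column-purified, linearly amplified and labelled with biotin. For the summary algorithm, scaling, detection calls and enrichment, the sources used here give nothing, and presence is not called. Arrays carry no read depth, and their number limits the precision.

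From the 22690 probe sets, 64 controls were dropped. Values became log2(intensity + 11.8), the offset being the 25th percentile of all values, and were quantile normalized. The offset makes differences of dim genes look smaller than they are. Probe sets with a mean above the 40th percentile (5.27) were tested, 13575 in all. Gene symbols are those of the platform annotation, with 1 symbol for 20380 probe sets, several for 691 and none listed for 1555.

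Tests were made with limma (3.58.1, under R 4.3.3), using eBayes with a trend in intensity, with 6 group means on all 10 arrays (4 residual degrees of freedom), and as an additive model on the 8 total and amplified arrays (5 degrees of freedom), with Benjamini-Hochberg adjustment at 0.05. The fits were tested on simulated data. Members, gene lists and tests were chosen with earlier results of these data known. All member probe sets are named, list and marker genes where they passed between kidneys, by the brightest probe set, and the 5 genes nearest to Nox4 by correlation. Cybb, Ncf1, Ncf4, Fabp4 and Csf1r are named for their signal level only. Second probe sets of Rac1, Gsr, Txnrd1 and Txnip that passed are named besides. Alternatives were other offsets, median scaling, no filter, no trend, no newly transcribed arrays, a replicate block and each array left out. P-values measure the spread between these arrays. Neither main fit has a term for mouse. If total and amplified arrays share mice, p-values of comparisons that join both preparations do not account for it.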

Additional observations from a re-analysis of the deposited data

Results flagged for a closer look

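Dao, an oxidase of D-amino acids, is named here because its contralateral effect differed between preparations by a direct test. Of all tested probe sets 4.46% passed that test, and 1 of the 62 tested list genes did. Dao and Slc13a3 (below) had both passed in amplified RNA, which is 1 side of the test. The amplified minus total difference of the effect was -0.57 ± 0.12 (limma adjusted p = 0.0235), from -0.61 in amplified and -0.04 in total RNA. Dao 1420709_s_at read 9.76 and 9.79 in contralateral and 10.37 and 10.39 in normal amplified RNA. In total RNA it read 10.69 and 10.60 in contralateral and 10.72 and 10.64 in normal kidneys. The call on that difference held in 8 of 17 alternatives with the same sign in all 17, and was lost without any 1 of the 4 total RNA or the 2 normal amplified arrays (adjusted p = 0.0529 to 0.126). It was also lost with median scaling, no filter and no trend (adjusted p = 0.0537 to 0.126).

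Slc13a3, a sodium-coupled dicarboxylate transporter and a proximal tubule marker, was another named gene whose effect differed between preparations by that test. Its amplified minus total difference was -0.88 ± 0.18 (limma adjusted p = 0.0185), from -0.82 in amplified and 0.05 in total RNA. Its probe set, 1438377_x_at, has the suffix that marks probes that may also match other transcripts. It read 9.59 and 9.42 in contralateral and 10.31 and 10.36 in normal amplified RNA. In total RNA the groups overlapped. The amplified effect of a second probe set was -0.001 (limma adjusted p = 0.997). The call on the difference of 1438377_x_at held in 11 of 17 alternatives. It was lost with no filter, with no trend, and without normal amplified replicate 1 or 2, normal total replicate 2 or contralateral total replicate 1 (adjusted p = 0.0541 to 0.11).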

How the results depend on the processing

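Each comparison was repeated under 17 alternatives, changing 1 choice at a time, and those for the list and marker genes were added after seeing the data. Of 1360 alternative values of the 16 member probe sets, 53 had another sign than the reported value, and in 51 of these neither value passed. The other 2, both with median scaling and amplified minus total RNA, were Nox4 1451827_a_at (0.0249) and Cat 1416430_at (0.1347). No member passed between kidneys in total RNA, or over total and amplified RNA, under any alternative. In amplified RNA the member count of 2 became 0 with median scaling, with no filter and without the trend, and 0 to 2 with each array left out. For the difference of the effects it was 0 to 1, and for amplified minus total RNA 8 to 13, with each array left out. Counts over all tested probe sets moved too. In total RNA 259 became 149 with median scaling, 87 without the filter and 145 without the trend, and 48 to 377 with each array left out. Leaving out arrays gave 516 to 1412 in amplified RNA (1400 reported), 128 to 321 over both (321 reported, 204 without the filter) and 275 to 687 for the difference of the effects (606 reported). The cause was not tested. Where an array left out leaves 1 in a group, that array is assumed to vary like the others.

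The labels do not pair the replicate numbers across groups, and deviations of same-numbered arrays correlated by -0.07 to 0.10 between groups. Total against amplified RNA of the same kidney group gave 0.10 in contralateral and 0.097 in normal kidneys. Pairs across the kidney groups ran from -0.07 to 0.042. With a replicate block the calls between kidneys were unchanged for all members, 2 in amplified RNA and 0 in total RNA, and amplified minus total RNA had 11 member calls in place of 13. The count over all tested probe sets was 277 in total RNA and 1429 in amplified RNA with the block.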
